A study of Homo sapiens with 14 samples.

Results

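The comparison described here set the 2 MDA-MB-231 libraries labelled RBI2 for 120 min against the 2 control libraries of the same experiment. MDA-MB-231 is an established line of triple-negative breast cancer cells. RBI2 is a small molecule, known by its code name, that was selected as an inhibitor of ribosome biogenesis and was given at 5 µM. CX-5461, which blocks RNA polymerase I (Pol I), was given at the same dose to other dishes. The experiment held 14 poly(A)-selected RNA-seq libraries in 7 groups of 2: control, RBI2 at 10, 30 and 120 min, and CX-5461 at 10, 30 and 120 min. The 4 libraries of the comparison were chosen by their labels and not by any measured value. The names of the deposited tables carry 02, 10 and 30 for the samples labelled 10, 30 and 120 min, for both compounds. Times given here are those on the labels, and the actual times of all treated groups may be shorter. The controls are called untreated in the methods of the study and DMSO-treated in its results. The labels do not say whether the replicates were separate cultures, so that p-values measure only the spread between these samples.

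Pol I transcribes the long precursor of 3 of the 4 ribosomal RNAs, and cells that divide fast depend on it. Most RNAs made by RNA polymerase III, the small nucleolar RNAs and the replication-dependent histone mRNAs end without a poly(A) tail and are largely lost when RNA is captured on oligo(dT). In the nucleus of yeast, faulty RNAs, among them rRNA precursors, receive a short tail from the TRAMP complex and are degraded by the exosome. Reads that aligned to ribosomal DNA were removed by the authors before quantification, so the nuclear rRNA itself cannot be read from these tables. The question that remains is what else differed in the poly(A)-selected RNA of the cells labelled RBI2 120 min.

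The 4 libraries held 14112299 to 16890323 estimated reads, within the range of 14112299 to 24849354 over all 14. Control replicate 2 stood apart. Transcripts of the mitochondrial genome took 241158 CPM, the usual read count scaled to a common library size, in it, against 94002 in control replicate 1 and 92246 and 114024 in the RBI2 libraries. Between the control replicates 812 genes differed by more than 2-fold, against 194 to 265 between the replicates of the other 6 groups. All 10 mesenchymal markers listed for this line passed the filter, and VIM stood at 3123, 3387, 2791 and 2779 CPM in control replicates 1 and 2 and RBI2 replicates 1 and 2. Of 13 luminal and epithelial markers, 9 passed the filter. The other 4, ESR1, PGR, CDH1 and FOXA1, reached at most 0.295 CPM in these 4 libraries. KRT8 and KRT18 were abundant at 412 to 525 and 409 to 486 CPM. ERBB2, KRT19 and CLDN4 lay at 52.5 to 77.9, 61.6 to 70.2 and 32.2 to 69.6 CPM, and EPCAM, GATA3, CLDN3 and CLDN7 were scarcer. None of the 8 leukocyte and red cell markers passed the filter, and their summed level lay between 0.32 and 0.65 CPM. Every value in CPM below is given in the same order of 4 libraries.

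Among the 15426 genes tested with edgeR's quasi-likelihood test over all 14 libraries, 280 (1.82%) were called, that is, had a Benjamini-Hochberg adjusted p below 0.05 and a change of at least 2-fold. Of these, 219 (1.42%) were higher and 61 (0.395%) were lower in the libraries labelled RBI2 120 min. Without the limit on the fold, 1373 genes (8.9%) were higher and 1399 (9.07%) lower. Both RBI2 libraries lay above both controls for 4203 genes (27.2%) and below both for 4272 (27.7%), which gives the background for separations of 2 against 2 libraries. All 219 of the higher genes and 58 of the 61 lower ones separated in this way. The higher genes were mostly scarce, with a median of 3.23 CPM in the RBI2 libraries, and 89 of the 219 reached 5 CPM. The calls rest on the spread pooled over 14 libraries: 32 genes were called when only the control and RBI2 libraries were fitted, and 0 when only these 4 libraries were, where 349 higher and 92 lower genes had an unadjusted p below 0.05 with the same fold. Without control replicate 2, 164 genes were called, 148 higher and 16 lower, and 102 of them were among the 280. With control replicate 2 as the only control the number was 1335. Far fewer genes were called without RBI2 replicate 1 or without RBI2 replicate 2. In each case most of the 57 named genes that were called lost their calls. In each of these fits the single library left in a group was assumed to vary like the other groups.

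Abundant housekeeping mRNAs hardly differed. GAPDH, a glycolytic enzyme, stood at 3373, 2913, 3135 and 3114 CPM with a log2 difference of -0.01 ± 0.09 (SE). ACTB, cytoplasmic actin, stood at 7212, 7620, 7249 and 7622 CPM with a log2 difference of 0.00 ± 0.06. PABPC1, the main cytoplasmic poly(A)-binding protein, stood at 1515, 2334, 1277 and 1422 CPM, with control replicate 2 well above the other libraries. Its log2 difference of -0.51 ± 0.15 did not reach the fold of a call (adjusted p = 0.042). The poly(A)-binding partner ATXN2 stood at 61.9, 120, 68.1 and 73.0 CPM, with the RBI2 libraries between the controls.

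Several short RNAs that normally carry no poly(A) tail were among the genes called higher. RN7SL1 and RN7SL2 encode the RNA of the signal recognition particle, RN7SK holds the elongation factor P-TEFb inactive, and RMRP is the RNA of the ribonuclease that cleaves pre-rRNA. The last 60 bases of RN7SK and RMRP as annotated on GRCh38 are shown because a tail is added to this end of an RNA. Whether these RNAs carried a tail was not tested. A capital marks T at the very end, which is 1 base in RN7SK and absent in RMRP. The longest run of A within the whole annotated RNA was 3 bases in both.
RN7SK (chr6:52995889-52995948, plus strand): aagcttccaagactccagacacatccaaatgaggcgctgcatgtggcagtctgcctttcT
RMRP (chr9:35657754-35657813, minus strand): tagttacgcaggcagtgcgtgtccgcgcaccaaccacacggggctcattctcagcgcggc

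RN7SL2 stood at 13.8 and 4.15 CPM in the controls and at 54.0 and 64.1 CPM in the RBI2 libraries. Its log2 difference was 2.68 ± 0.42 (edgeR, adjusted p = 0.0075). The near-identical copy RN7SL1 stood at 14.5, 1.44, 37.3 and 62.1 CPM, with a log2 difference of 2.59 ± 0.61 (adjusted p = 0.022). The estimated split of reads between these copies is uncertain, and both control replicate 2 values were the lowest of the 14 libraries. RN7SK stood at 3.17, 2.80, 8.85 and 21.7 CPM, a log2 difference of 2.34 ± 0.44 (adjusted p = 0.012). The groups did not overlap for any of these 3 RNAs. RN7SL2 and RN7SL1 lost their calls without RBI2 replicate 1 (adjusted p = 0.053 and 0.080) and without RBI2 replicate 2 (adjusted p = 0.0502 and 0.108), and RN7SK without RBI2 replicate 2 (log2 difference 1.56, adjusted p = 0.073). The calls held without control replicate 2, with log2 differences of 2.09 for RN7SL2, 1.77 for RN7SL1 and 2.25 for RN7SK. RMRP stood at 0.435, 0, 1.18 and 8.91 CPM, so that its log2 difference of 4.35 ± 1.28 (adjusted p = 0.042) rested largely on RBI2 replicate 2, and without control replicate 2 the adjusted p was 0.14.

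The list of RNAs without a poly(A) tail and of nuclear noncoding RNAs held 24 symbols, of which 23 matched the annotation and 11 passed the filter on low counts. Of the 11, 6 were called higher and 0 lower, beside 1.42% of all genes, and the median log2 difference was 1.80 against 0.01 over all genes tested. Since the filter lets a gene pass on the strength of 1 group alone, scarce members could pass through the group where they were high. The count and the median are therefore given as a description, and the 12 that failed the filter are not covered by them. In the fit without control replicate 2, 12 members were tested, with a median log2 difference of 1.44 and 9 above 0. Besides the 4 RNAs above, SCARNA9, a guide RNA of Cajal bodies, stood at 1.74, 1.84, 5.37 and 7.18 CPM with a log2 difference of 1.80 ± 0.25 (adjusted p = 0.0052). SNORD3A, the U3 snoRNA that guides early cleavage of pre-rRNA, stood at 0.311, 0, 1.83 and 3.55 CPM with a log2 difference of 3.91 ± 1.01 (adjusted p = 0.029 over all libraries and 0.095 without control replicate 2). RPPH1, the RNA of ribonuclease P, stood at 2.61, 0.879, 3.25 and 8.19 CPM and missed the threshold (adjusted p = 0.056). The nuclear-retained MALAT1, whose end is a triple helix in place of a tail, stood at 2344, 1888, 3725 and 3953 CPM, and its log2 difference of 0.86 ± 0.17 lay below the fold limit (adjusted p = 0.014). NEAT1, the scaffold of paraspeckles, stood at 198, 147, 197 and 179 CPM and did not separate.

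**Figure D1:**
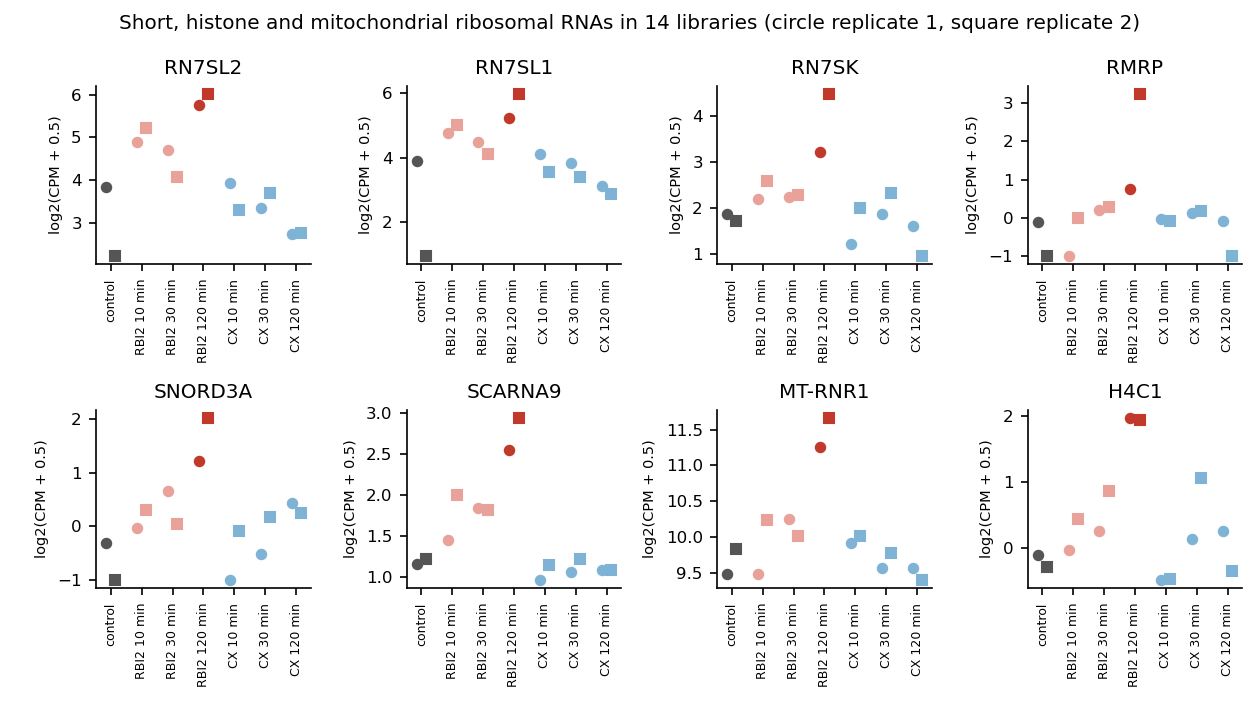
Each panel plots log2(CPM + 0.5) of 1 RNA in the 14 libraries by group, with a circle for replicate 1 and a square for replicate 2 and times as on the labels. In all 8 panels both libraries labelled RBI2 120 min lie above both controls, and for RN7SL2 the earlier RBI2 libraries lie between 16.2 and 36.8 CPM.

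Levels in the other groups, which share the controls with this comparison, are given for description. RN7SL2 lay at 29.3 and 36.8 CPM at 10 min of RBI2 and at 25.5 and 16.2 CPM at 30 min, while the 6 CX-5461 libraries ranged from 6.19 to 14.7 CPM. RN7SK did not exceed 5.56 CPM in any of these 10 libraries. The ranges were 1.46 to 3.52 CPM for SCARNA9 and 0 to 1.08 CPM for SNORD3A. For RN7SK, SCARNA9 and SNORD3A, both libraries labelled RBI2 120 min therefore lay above the remaining 12.

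The 12S ribosomal RNA of mitochondria was the most abundant RNA called higher, by its mean in the RBI2 libraries. MT-RNR1 stood at 717, 909, 2451 and 3239 CPM, a log2 difference of 1.81 ± 0.23 (adjusted p = 0.0043), and the other 10 libraries ranged from 673 to 1222 CPM. This call held under each alternative except the fit on 4 libraries alone. The 16S rRNA MT-RNR2, named after its value was seen, stood at 5067, 10775, 6514 and 8271 CPM and was not called (adjusted p = 0.81), with control replicate 2 the highest. Of the 15 genes of the mitochondrial genome in the list, MT-RNR1 was the 1 called higher and 0 were called lower, beside 1.42% and 0.395% of all genes. The median log2 difference of the list was -0.69, and 0.08 without control replicate 2. MT-ND4 and MT-CO1, subunits of complex I and of cytochrome oxidase, stood at 16026, 44424, 14181 and 17397 CPM and at 15158, 32778, 14023 and 16419 CPM.

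Replication-dependent histone mRNAs, which end in a stem-loop, gave 5 higher and 0 lower genes among the 24 of 66 that passed the filter, with a median log2 difference of 0.54, beside 1.42% of all genes called higher. The rest failed the filter, which can pass a gene through 1 high group, so the count does not describe the family. This list is longer than the lists whose called members the rule names, so its members were named after their values were seen. H4C1 stood at 0.435, 0.320, 3.42 and 3.33 CPM, a log2 difference of 3.12 ± 0.56 (adjusted p = 0.011). The linker histone H1-4 stood at 2.24, 1.04, 5.07 and 7.03 CPM, with a log2 difference of 1.85 ± 0.34 (adjusted p = 0.011). H4C1 and H1-4 lost their calls without RBI2 replicate 1 (adjusted p = 0.074 and 0.059) and without RBI2 replicate 2 (adjusted p = 0.058 and 0.072). H3C14, H4C16 and H4C3 were called with log2 differences of 2.34, 2.43 and 1.09, but without control replicate 2 their adjusted p rose to 0.10, 0.14 and 0.13. The most abundant member, H2BC12, stood at 39.7, 24.9, 33.5 and 32.2 CPM and did not separate. H1-2 stood at 13.6, 7.59, 13.5 and 17.4 CPM (adjusted p = 0.13).

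By RNA class, the calls fell unevenly. Of 12605 protein-coding genes, 101 (0.801%) were higher and 43 (0.341%) lower. Of 2184 long noncoding RNAs (lncRNAs), 77 (3.53%) were higher and 10 (0.458%) lower. Of 134 TEC genes, which are mostly single-exon transcripts whose coding status is still to be tested, 18 (13.4%) were higher and 1 was lower. The higher lncRNA and TEC genes had median levels of 1.76 and 2.04 CPM in the RBI2 libraries. Scarce ones could pass the filter through that group alone, so these shares are given as a description. Among the 9 snoRNA genes tested, 3 were higher, beside 1.42% of all genes, and since scarce snoRNAs could pass the filter through the group where they were high, nothing is read from this count. The 5 snRNA genes tested had 1 called higher and 2 above 0, with a median log2 difference of -0.79. The 1 gene annotated as scaRNA was at -0.09. Among 200 processed pseudogenes, 8 were higher and 3 lower. When control replicate 2 was left out, 86 protein-coding genes, 39 lncRNAs and 11 TEC genes were higher. With an offset for GC content and length, the counts were 28, 38 and 13.

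**Figure D2:**
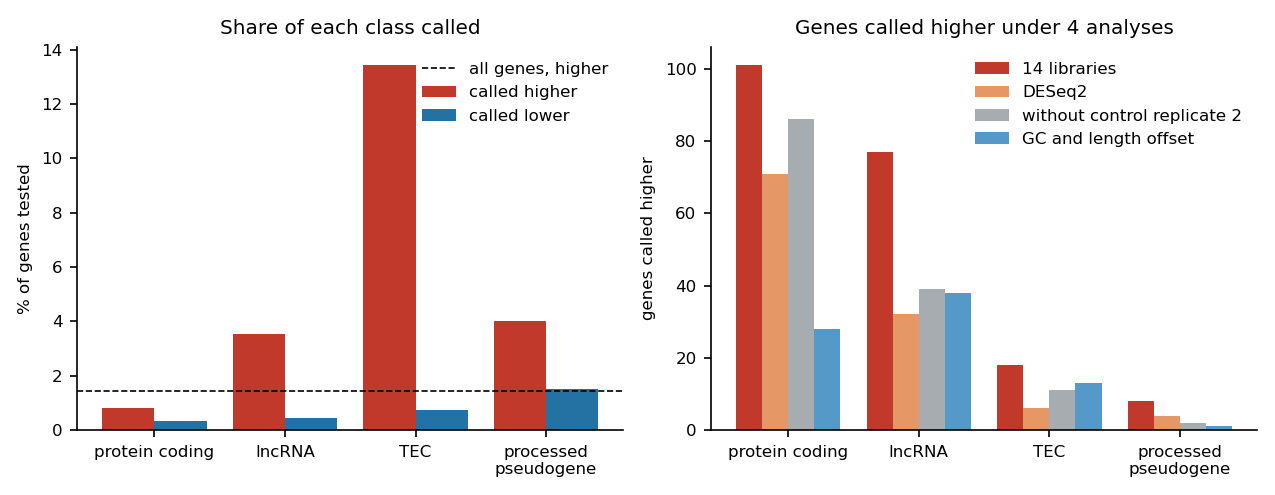
The left panel plots the percent of tested genes of 4 annotated classes called higher or lower for RBI2 120 min against control, with the share over all genes as a dashed line, and the right panel the number called higher under 4 analyses. TEC genes have the tallest bar at 13.4%, and the protein-coding count falls from 101 to 28 with the GC and length offset.

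Annotated lncRNA genes took 1.46% of the reads of nuclear genes in both controls and 1.78% in both RBI2 libraries, and 1.16% to 1.55% in the other 10 libraries. This share includes the abundant MALAT1, which was itself higher in both RBI2 libraries and was not called. The share without MALAT1 was not computed, so the difference is not read as one of the whole class. TEC genes took 0.0267% and 0.0263% in the controls and 0.0402% and 0.0385% in the RBI2 libraries. The class that holds the signal recognition particle RNAs (misc_RNA) took 0.00586%, 0.00276%, 0.0146% and 0.0180%. The RBI2 libraries were the highest of the 14 in each of these 3 classes, while a two-sided exact permutation test of 2 against 2 cannot go below p = 0.333, the value each gave. Protein-coding genes took 97.7%, 97.3%, 97.4% and 97.3% and overlapped between the groups. Unprocessed pseudogenes took 0.219%, 0.582%, 0.203% and 0.206%, with the RBI2 libraries below both controls and control replicate 2 the highest. Retained introns, a class of spliced transcript that keeps an intron, took 4.92%, 5.05%, 5.08% and 4.87% and overlapped between the groups. Transcripts annotated as targets of nonsense-mediated decay took 3.74%, 5.14%, 3.55% and 3.63%, again lower in the RBI2 libraries with control replicate 2 the highest.

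The position of the higher noncoding genes is given as a description, without a test. Of the 95 lncRNA and TEC genes called higher, 32.6% overlapped a protein-coding gene on the same strand, against 17.1% of the 2318 tested. Overlap with a protein-coding gene on the opposite strand went the other way, at 29.5% against 43.6%. Single-exon genes made up 45.3% of them, against 25.7%, and genes that start within 2000 bases of a protein-coding gene in the opposite direction 6.32%, against 14.9%. Overlap was counted over whole gene spans, introns included. Reads of an overlapping gene on the same strand may come from the host or its unspliced RNA, and these were not separated. ENSG00000280138, a TEC gene at chr12:122870059-122888720 within the gene of the endosomal sorting factor VPS37B, stood at 3.42, 3.35, 12.9 and 13.0 CPM, a log2 difference of 1.93 ± 0.21 (adjusted p = 0.0022). ENSG00000280152, a TEC gene at chr16:75245994-75250077 within BCAR1, an adaptor of integrin signalling, stood at 1.62, 0.639, 7.49 and 6.23 CPM (log2 difference 2.56 ± 0.37, adjusted p = 0.0059). The lncRNA ENSG00000241860 at chr1:141474-173862 stood at 4.47, 5.51, 21.6 and 17.7 CPM (log2 difference 1.98 ± 0.30, adjusted p = 0.0065). All 3 kept their calls without control replicate 2 and with the GC and length offset. Without RBI2 replicate 1 the adjusted p was 0.055 for both ENSG00000280152 and ENSG00000241860, and neither was called with only the control and RBI2 libraries.

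Host transcripts of microRNAs went both ways, with 1 of 17 called in each direction, beside 1.42% of all genes called higher and 0.395% lower, and nothing is read from this count about the list. MIR29B2CHG, which holds MIR29B2 and MIR29C, stood at 1.24, 0.799, 4.60 and 3.33 CPM, a log2 difference of 1.94 ± 0.41 (adjusted p = 0.016, and 0.060 without control replicate 2). MIR3142HG, which holds MIR146A, stood at 1.55, 1.20, 0.354 and 0.290 CPM, a log2 difference of -2.07 ± 0.40 (adjusted p = 0.013). It kept its call without control replicate 2 and lost it without RBI2 replicate 1 or 2 (adjusted p = 0.093 and 0.083). Among 27 host genes of snoRNAs none was called in either direction by edgeR, and 4 were higher at any fold, beside 8.9% of all genes. The list's median log2 difference went from 0.23 to 0.03 without control replicate 2. SNHG16 stood at log2 0.40 ± 0.08 (adjusted p = 0.014).

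Several rises belonged to gene models that share sequence with others. The pseudogenes PKD1P1, PKD1P3 and PKD1P4, copies of the polycystin gene PKD1, had log2 differences of 1.79, 2.02 and 1.16. Their reads can be exchanged between near-identical copies, and the 3 calls were lost with the GC and length offset (adjusted p = 0.055, 0.0945 and 0.174). The readthrough transcript RTEL1-TNFRSF6B stood at 7.64, 2.48, 21.3 and 20.1 CPM (log2 difference 1.99 ± 0.42, adjusted p = 0.017). The libraries outside this comparison ranged from 10.7 to 20.2 CPM, all above both controls. Its call was lost when either RBI2 library was left out and with only the control and RBI2 libraries. ENSG00000262526, a gene model at chr17:7240427-7244635 that overlaps GABARAP and CTDNEP1, was at 0 in both controls and at 23.96 and 20.7 CPM in the RBI2 libraries. That is at least 213-fold higher against a floor of 3 counts over the group. The same model was at 0 in all libraries at 10 and 30 min of RBI2 and at 30 min of CX-5461, and between 18.7 and 27.4 CPM in the 4 libraries at 10 and 120 min of CX-5461.

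The higher and lower genes differed in their median transcript GC content, with overlapping ranges. The median GC content was 54.0% for the 219 higher genes, 40.3% for the 61 lower genes and 48.0% for all genes tested. Among protein-coding genes alone the medians were 58.6%, 40.1% and 48.3%, and the median lengths 5073, 4297 and 2876 bases. For lncRNAs the higher genes lay at 49.9% and those tested at 47.4%, and for TEC genes at 47.0% and 47.9%. In 10 equal bins of tested genes by GC content, the lowest bin held 9 higher and 22 lower genes with a median log2 difference of -0.38. The highest bin held 48 higher (3.11%) and 0 lower genes with a median of 0.42. The median rose from each bin to the next.

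**Figure D3:**
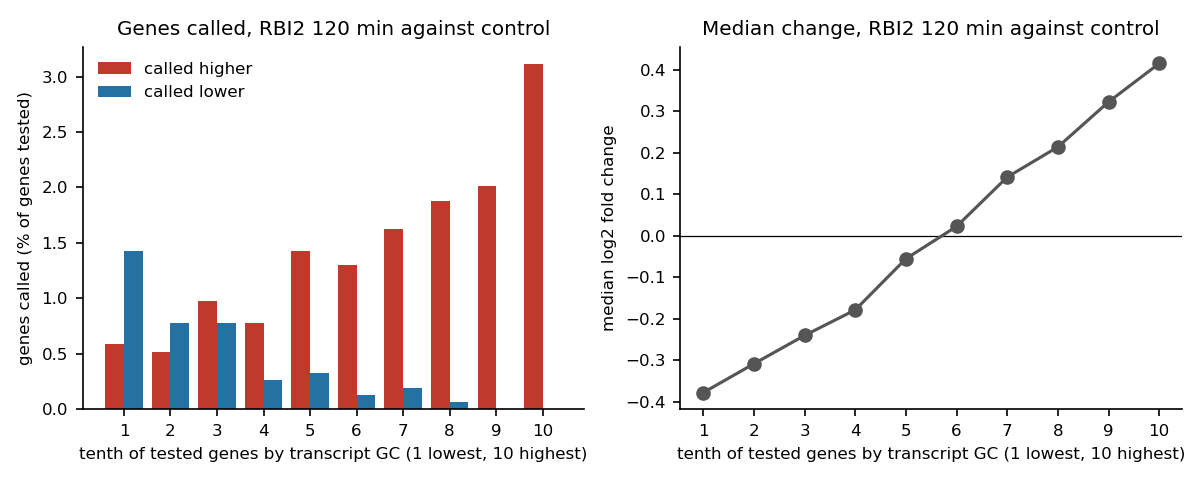
Tested genes were put into 10 equal bins by transcript GC content, from 1 (lowest) to 10 (highest). The left panel plots the percent of each bin called higher or lower for RBI2 120 min against control, and the right panel the median log2 fold change, which goes from -0.38 to 0.42.

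This gradient depended on the libraries compared. For each library, the median deviation of the lowest GC bin from the mean of all libraries was subtracted from that of the highest bin. The result was 0.39 and 0.28 log2 units in the RBI2 libraries, -0.03 in control replicate 1 and -0.85 in control replicate 2. Libraries at 30 min of RBI2 lay at 0.22 and 0.17, and those at 10 min at -0.10 and -0.11. The CX-5461 libraries ranged from -0.32 to 0.38, and the replicates at 30 min of CX-5461 lay at -0.0012 and 0.38. Across the 15426 genes, Spearman's rho between GC content and the log2 ratio was 0.44 and 0.33 for RBI2 replicates 1 and 2 against control replicate 1, and 0.64 for each against control replicate 2. These are descriptions across genes that share their libraries. Without control replicate 2 the lowest bin held 8 higher and 8 lower genes with a median of -0.23, and the highest bin 22 higher and 0 lower genes with a median of 0.16. The part of control replicate 2 or of library preparation in the gradient was not tested further.

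**Figure D4:**
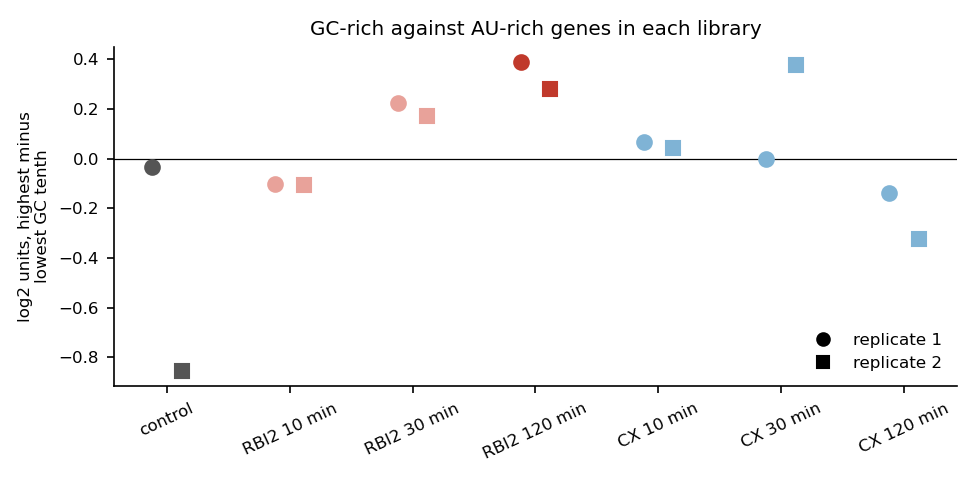
Each point is 1 of the 14 libraries, and the vertical axis gives the median deviation of the most GC-rich bin of genes minus that of the most AU-rich bin, in log2 units. Control replicate 2 is the lowest at -0.85, and the libraries labelled RBI2 120 min lie at 0.39 and 0.28.

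Long, GC-rich mRNAs made up much of the protein-coding rise. When the protein-coding genes were split by GC content and by length into 3 classes each, the class high in GC and long held 44 higher (5.22%) and 1 lower of 843 genes. The class high in GC and short held 11 higher of 1887, and the class low in GC and long 5 higher and 21 lower of 1901. KMT2D, a histone H3K4 methyltransferase, stood at 47.4, 60.5, 169 and 166 CPM, a log2 difference of 1.64 ± 0.26 (adjusted p = 0.0074). FOXK1, a forkhead factor that represses autophagy genes downstream of mTORC1, stood at 66.1, 62.1, 204 and 194 CPM, with a log2 difference of 1.63 ± 0.17 (adjusted p = 0.0019). HSPG2, the basement membrane proteoglycan perlecan, stood at 97.0, 85.8, 273 and 271 CPM, a log2 difference of 1.57 ± 0.18 (adjusted p = 0.0025). CASTOR2, of the family of arginine sensors of mTORC1, stood at 8.95, 7.83, 25.0 and 22.6 CPM, with a log2 difference of 1.5 ± 0.13 (adjusted p = 0.0012). KMT2D lost its call without RBI2 replicate 1 (adjusted p = 0.053). In these 4 genes the RBI2 libraries were 2.8 to 3.1 times the controls and did not overlap with them, and the calls held without control replicate 2. With the GC and length offset FOXK1 and CASTOR2 kept their calls at log2 differences of 1.09 and 1.06, while KMT2D and HSPG2 fell below the fold limit at 0.83 and 0.82. Both also lost their calls with the offset for transcript length, where HSPG2 was at 0.48. FOXK1 shares its strand with the gene model ENSG00000287665 and KMT2D with ENSG00000288710.

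**Figure D5:**
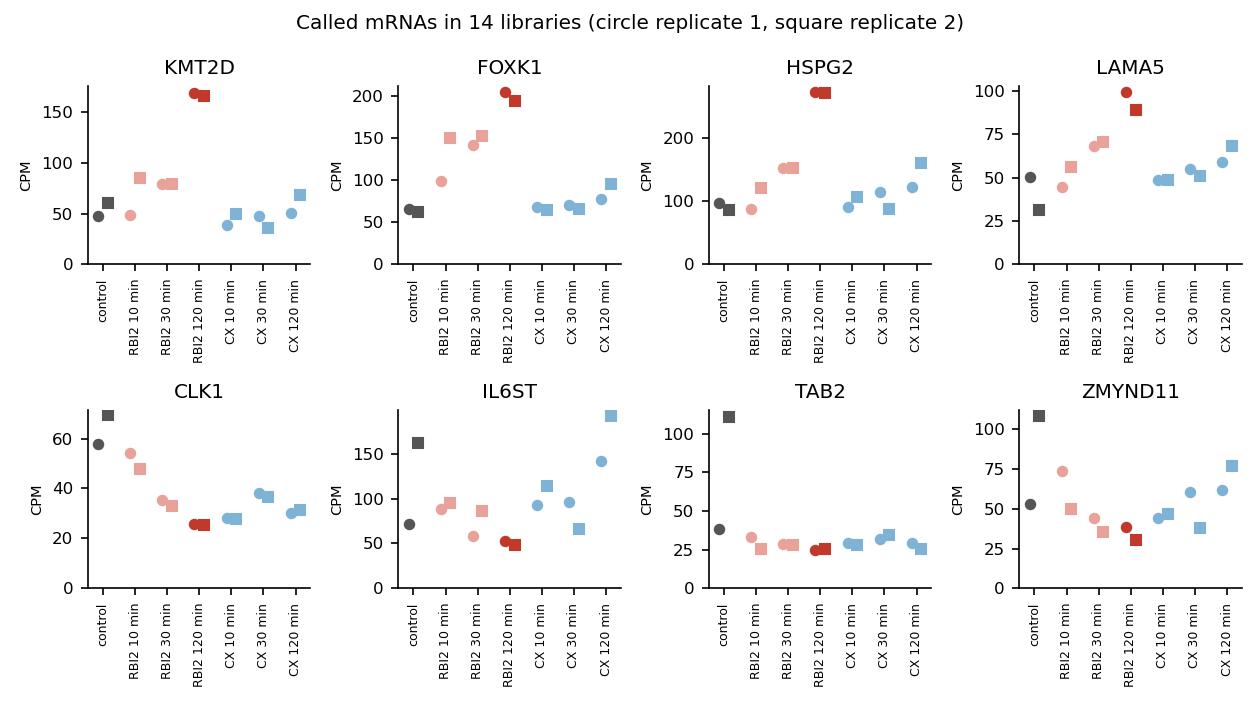
Each panel plots the CPM of 1 called mRNA in the 14 libraries by group, on a linear axis that starts at 0, with a circle for replicate 1 and a square for replicate 2. KMT2D, FOXK1, HSPG2 and LAMA5 are highest in the libraries labelled RBI2 120 min, and for TAB2, IL6ST and ZMYND11 control replicate 2 lies well above control replicate 1.

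The programs around these genes were mostly below the fold limit. Of 52 enzymes of histone methylation and acetylation and their partners, KMT2D was the 1 called higher, beside 1.42% of all genes. Nothing is read from that count about the list. At any fold 15 were higher and 4 lower, beside 8.9% and 9.07% of all genes. KMT2B, another H3K4 methyltransferase, stood at 55.3, 54.8, 103 and 101 CPM, a log2 difference of 0.89 (adjusted p = 0.0019). KDM6B, an H3K27 demethylase, stood at 12.3, 14.3, 23.4 and 24.4 CPM with a log2 difference of 0.85. The 4 members that were lower, EZH2, KAT2B, HDAC2 and HDAC9, had transcript GC contents between 39.1% and 44.6%. With the GC and length offset 6 were higher and 0 lower, beside 478 and 321 of all 15426 genes. Without control replicate 2 the list's median log2 difference was 0.38, against 0.27 with both controls.

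Of 39 semaphorins, plexins and ephrins, a family of guidance ligands and receptors, 2 were called higher and 0 lower, beside 1.42% and 0.395% of all genes. At any fold 14 were higher and 0 lower, beside 8.9% and 9.07%. The list's median log2 difference was 0.32, and 0.29 over 40 genes without control replicate 2. SEMA6C stood at 1.06, 0.879, 2.07 and 2.97 CPM (log2 difference 1.36 ± 0.35, adjusted p = 0.028) and PLXNB1 at 3.54, 2.40, 6.67 and 6.31 CPM (log2 difference 1.11 ± 0.21, adjusted p = 0.012). Neither was called without control replicate 2 or with the GC and length offset, and with that offset 2 of 39 were higher at any fold. Over all 15426 genes, 478 were higher and 321 lower at any fold with that offset. The list has a median GC content of 58.6%. Of 30 extracellular matrix genes, with a median of 55.8%, HSPG2 and LAMA5 were called higher and 0 lower, and at any fold 10 were higher and 1 lower, beside 8.9% and 9.07% of all genes. With the GC and length offset 3 were higher and 0 lower at any fold, beside 478 and 321 of all 15426 genes. The list's median log2 difference went from 0.22 to 0.03 with that offset. LAMA5, a laminin chain, stood at 50.6, 31.0, 99.4 and 88.7 CPM, a log2 difference of 1.20 ± 0.19 (adjusted p = 0.0076), and 0.89 without control replicate 2, below the fold limit. It was 0.53 with the GC and length offset and 0.05 with the length offset, and without RBI2 replicate 1 the adjusted p was 0.069. The collagens COL5A1 and COL27A1 stood at log2 differences of 0.80 and 0.88 (adjusted p = 0.0075 and 0.0019).

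Single members were called in other lists, beside 1.42% of all genes called higher, and these counts show nothing about the lists. SMAD6, an inhibitor of BMP signalling, was the 1 of 20 early TGF-beta and BMP targets and stood at 1.68, 1.60, 3.78 and 3.70 CPM (log2 difference 1.18 ± 0.22, adjusted p = 0.012). Without RBI2 replicate 1 or 2 it lost its call. With the GC and length offset its adjusted p was 0.054. The genes of this list higher at any fold then went from 5 to 0, beside 1373 and 478 of all 15426 genes. CHAC1, a glutathione-degrading target of the integrated stress response, was the 1 of 23 and stood at 1.31, 0.959, 2.18 and 2.90 CPM (log2 difference 1.14 ± 0.29, adjusted p = 0.027, and 0.12 without control replicate 2). The libraries outside this comparison ranged from 1.62 to 3.50 CPM for CHAC1 and from 2.46 to 5.59 CPM for SMAD6, all above both controls. The RBI2 120 min values of both genes lay within these ranges. FOXK1 and CASTOR2 were the 2 of 42 genes of mTORC1 amino acid sensing.

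Among the lower genes, CLK1 fell against both controls alike. CLK1, a kinase that phosphorylates SR splicing factors, stood at 57.7, 69.3, 25.9 and 25.4 CPM, a log2 difference of -1.30 ± 0.11 (adjusted p = 0.0012), and of -1.17 without control replicate 2. With the GC and length offset its log2 difference was -0.84, below the fold limit. CLK1 was the 1 of 23 CLK kinases and SR factors that was called, beside 0.395% of all genes called lower. At any fold 9 were lower and 0 higher, beside 9.07% and 8.9%. With the replicate number as a block 4 were lower and 0 higher, beside 1142 and 1242 of all 15426 genes. The list's median log2 difference was -0.10 without control replicate 2. With the GC and length offset 3 were lower and 1 higher at any fold, beside 321 and 478 of all 15426 genes, and the list's median log2 difference turned from -0.17 to 0.08. The paralogue CLK4 stood at 13.2, 17.3, 8.08 and 8.33 CPM, a log2 difference of -0.89 (adjusted p = 0.0069). In the other groups, CLK1 ranged from 27.8 to 38.3 CPM with CX-5461, from 47.6 to 54.4 CPM at 10 min of RBI2 and from 33.1 to 35.4 CPM at 30 min. The lncRNA ENSG00000289405 stood at 7.83, 10.1, 3.60 and 4.06 CPM (log2 difference -1.22 ± 0.21, adjusted p = 0.0098) and kept its call without control replicate 2. It lost the call with the GC and length offset (log2 difference -0.85) and without RBI2 replicate 1 or 2 (adjusted p = 0.078 and 0.058).

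Over the 61 lower genes, the median difference from the control mean was -0.28 in control replicate 1 and 0.28 in control replicate 2 (log2). Several of the largest falls had a wider gap between the controls. TAB2, an adaptor of the kinase TAK1, stood at 38.2 and 111 CPM in the controls and at 24.7 and 25.7 CPM in the RBI2 libraries. IL6ST, the shared receptor subunit gp130 of the interleukin-6 family, stood at 71.7, 162, 52.5 and 47.8 CPM, and ZMYND11, a chromatin reader, at 53.1, 108, 38.6 and 30.7 CPM. The log2 differences of TAB2, IL6ST and ZMYND11 went from -1.56, -1.22 and -1.21 to -0.61, -0.52 and -0.62 without control replicate 2, and none was then called. CEP83, EVI2B, ZNF41, RDUR and ASDURF were likewise not called without it. The processed pseudogene ENSG00000218426 was at 481 CPM in control replicate 2 and at 0 in control replicate 1, and its RBI2 values were 0 and 2.1 CPM. The mitochondrial pseudogene MTATP6P1 stood at 1210, 4182, 1079 and 1144 CPM, the pattern of the mitochondrial genome itself, with which it shares sequence.

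The promoters of a GC-rich higher gene and an AU-rich lower gene are shown, with each CG in capitals, because their transcripts differ in GC content and their promoters are both rich in it. Both promoters were chosen after values were seen. The sequences are those of RefSeq on GRCh38.p14 from 250 bases before to 50 bases after the start. The HSPG2 promoter has a GC content of 83.3% and 44 CG, and its transcript 64.3%. The IL6ST promoter has 72.7% and 36 CG, and its transcript 36.3%. A summary over promoters is void, since 39.7% of the higher genes and 63.9% of the lower genes matched an entry by symbol.
HSPG2 (chr1:21937261-21937560, minus strand): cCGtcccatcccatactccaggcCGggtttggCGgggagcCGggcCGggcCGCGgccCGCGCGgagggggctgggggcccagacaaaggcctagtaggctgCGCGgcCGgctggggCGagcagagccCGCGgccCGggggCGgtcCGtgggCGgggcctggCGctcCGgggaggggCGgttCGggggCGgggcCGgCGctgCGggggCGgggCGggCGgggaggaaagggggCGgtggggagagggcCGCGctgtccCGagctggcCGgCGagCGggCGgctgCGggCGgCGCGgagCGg
IL6ST (chr5:55994914-55995213, minus strand): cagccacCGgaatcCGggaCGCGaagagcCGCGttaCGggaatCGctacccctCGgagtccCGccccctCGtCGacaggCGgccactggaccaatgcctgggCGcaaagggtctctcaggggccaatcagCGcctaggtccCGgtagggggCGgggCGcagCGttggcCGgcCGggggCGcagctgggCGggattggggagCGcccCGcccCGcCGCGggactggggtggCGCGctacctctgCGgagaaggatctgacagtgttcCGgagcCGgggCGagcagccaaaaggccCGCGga

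The machinery of rRNA synthesis and RNA decay gave no called gene in the edgeR fit. Of the 13 Pol I subunits 0 were called, and 3 were higher at any fold, beside 8.9% of all genes higher and 9.07% lower. POLR1A, the largest subunit, stood at 189, 215, 303 and 314 CPM (log2 difference 0.62 ± 0.13, adjusted p = 0.016), and the shared subunit POLR2L at 177, 145, 179 and 173 CPM. Of the 13 initiation and termination factors, 2 were higher and 2 lower at any fold. Of 60 ribosome biogenesis factors 6 were higher and 9 lower at any fold, with a median log2 difference of -0.03. With the GC and length offset 3 of the 60 were lower at any fold, beside 321 of all 15426 genes. Without control replicate 2 the list's median log2 difference was -0.05. NPM1, an abundant nucleolar chaperone, stood at 2529, 2954, 2134 and 2300 CPM (log2 difference -0.31 ± 0.07, adjusted p = 0.024), and NCL, nucleolin, at 1412, 1923, 1407 and 1561 CPM. RPL36A was the 1 of 79 cytosolic ribosomal protein genes called, at a log2 difference of -1.001, beside 0.395% of all genes called lower. The median log2 difference of that list was 0.01, with 40 of the 79 above 0. Without control replicate 2 it was -0.12, with 3 of the 79 above 0.

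Of 21 genes of the nuclear exosome, TRAMP and its nuclear adaptors, 0 were called, while at any fold 1 was higher and 7 were lower, beside 8.9% and 9.07% of all genes. The list's median log2 difference was -0.23, and -0.18 without control replicate 2. DIS3, an exosome nuclease, stood at 76.4, 103, 55.2 and 54.9 CPM, a log2 difference of -0.70 (adjusted p = 0.017). MTREX, the helicase of TRAMP, stood at 51.6, 64.6, 44.5 and 42.6 CPM with a log2 difference of -0.41, and RBM7, an adaptor, at 49.8, 63.2, 37.3 and 39.1 CPM with -0.56. Of 26 genes of poly(A) binding and deadenylation 3 were higher and 5 lower at any fold. LARP1, which binds the mRNAs of ribosomal proteins, stood at 529, 615, 888 and 933 CPM (log2 difference 0.67 ± 0.09, adjusted p = 0.0052). The exosome list has a median GC content of 41.6%. With the GC and length offset 0 of its genes were higher and 2 lower at any fold, beside 478 and 321 of all 15426 genes.

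Stress and growth programs gave few or no calls. None of the 27 p53 targets, 25 immediate early genes, 24 NF-kB targets, 21 chaperones, 25 sterol synthesis genes or 31 proteasome subunits passed both thresholds in edgeR. At any fold, beside 8.9% and 9.07% of all genes, p53 targets had 3 higher and 3 lower, immediate early genes 4 and 1, NF-kB targets 3 and 2, chaperones 3 and 2, sterol synthesis genes 1 and 9, and proteasome subunits 0 and 4. Without control replicate 2 the median log2 difference went from 0.19 to 0.07 for p53 targets and from 0.24 to 0.17 for immediate early genes. For sterol synthesis genes it went from -0.05 to -0.13. With the GC and length offset 1 of the 25 sterol synthesis genes was lower at any fold, beside 321 of all 15426 genes. Of the 30 mitotic genes 0 were called and 11 were lower at any fold. Among them ANLN, a cytokinetic actin-binding protein, stood at 466, 843, 330 and 377 CPM (log2 difference -0.89, adjusted p = 0.029). Control replicate 2 lay well above the other libraries for ANLN. The mitotic list's median log2 difference was -0.30, and -0.20 without control replicate 2. With the GC and length offset 1 of the 30 was lower at any fold, beside 321 of 15426 genes. MYC, which drives ribosome synthesis, stood at 178, 193, 131 and 143 CPM (log2 difference -0.44, adjusted p = 0.0081), and the serum response factor SRF at 107, 101, 138 and 134 CPM (log2 difference 0.38, adjusted p = 0.0081). FOSL1 stood at 696, 938, 767 and 832 CPM and CCN1 at 685, 673, 746 and 764 CPM.

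The libraries labelled RBI2 120 min were also set against the other groups directly. Against 10 min of RBI2, 107 genes (0.694%) were called, 83 higher and 24 lower, and 40 of the higher genes were protein coding, 31 lncRNAs and 7 TEC genes. SKIL, a repressor of TGF-beta signalling, was among the lower genes, with a log2 difference of -1.63 ± 0.21 (adjusted p = 0.0053). It stood at 45.7 and 48.2 CPM at 10 min, at 14.9 and 15.4 CPM in the RBI2 120 min libraries and at 13.98 and 22.9 CPM in the controls, so that the 10 min libraries stood apart. Against 30 min of RBI2, 2 genes (0.013%) were called in edgeR, with 191 higher and 56 lower at an unadjusted p below 0.05, and DESeq2 called 25. Against 120 min of CX-5461, the other compound at the same dose and labelled time, 258 genes (1.67%) were called, 196 higher (1.27%) and 62 lower. Of these 196, 102 were lncRNAs and 22 TEC genes, and 51 were protein coding. The lower genes had a median GC content of 38.0% and the higher ones 49.0%. Leaving out 1 library gave between 7 and 63 calls against 10 min of RBI2 and between 5 and 259 against 120 min of CX-5461, with 5 and 19 without RBI2 replicate 2 and 1 and 25 without CX-5461 replicate 2. These 3 comparisons use the same RBI2 libraries, so their counts are not independent of each other.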

How the data were processed

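Poly(A)-selected, strand-marked libraries of MDA-MB-231 cells were sequenced by the authors, who removed reads aligning to the ribosomal DNA repeat and quantified the rest on GRCh38 transcripts with Salmon. The submitters' processing notes list Salmon 1.3.0, STAR 2.7.6a, SAMtools 1.11, bedtools 2.29.2 and DESeq2 1.28.1, and the annotation release is not given in the sources used here. The deposited tables hold estimated counts per transcript, which are not whole, and TPM, which the authors' Salmon run scaled to the same sum in each library. Estimated reads were summed per gene through GENCODE release 44, in which 225662 of 228754 transcripts matched by identifier (214947 with the same version), and rounded. The other 3092 were left out.

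edgeR 4.0.16 in R 4.3.3 fitted all 14 libraries and 7 groups with TMM scaling, the default filter at a minimum count of 10 and the quasi-likelihood F test, with no block. A call needed a Benjamini-Hochberg adjusted p below 0.05 and a log2 difference of at least 1. The script was tested on simulated data. Values after ± are standard errors of the fit. CPM values use library sizes scaled by TMM. Alternatives used DESeq2 1.42.0, offsets for GC content and length fitted with mgcv 1.9.3, other filters, subsets of libraries and each library left out.

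The lists and members were chosen with earlier results of these data known. Named genes were the 12 largest rises and falls of at least 5 CPM whose groups did not overlap, the 3 most abundant called genes of each noncoding type, called members of lists of at most 60 genes, the 2 most abundant members of each list, and PABPC1, ATXN2, GAPDH and ACTB. Other genes named, among them histones, MT-RNR2 and list members past the threshold at any fold, and all printed sequences were chosen after values were seen. Promoters are from RefSeq. A named list member is not reported here.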

Additional observations from a re-analysis of the deposited data

Results flagged for a closer look

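Direct tests of the difference between the libraries labelled RBI2 120 min and other treated groups gave calls with edgeR's quasi-likelihood test, which marks them for a closer look. Against 10 min of RBI2, 107 of 15426 genes (0.694%) differed. Against 30 min of RBI2 2 genes differed (0.013%): the overlapping gene model ENSG00000262526 and the lncRNA ENSG00000258964, which lay at 0 in both libraries at 30 min and at 7.33 and 11.02 CPM in the controls. Against 120 min of CX-5461 258 genes (1.67%) differed. Leaving out 1 library moved these counts to 7 to 63 against 10 min of RBI2, 1 to 4 against 30 min and 5 to 259 against CX-5461. These tests share the RBI2 libraries.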

How the results depend on the processing

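Calls against control depended on the spread, the libraries and the handling of GC content. DESeq2 called 167 genes (122 higher, 45 lower), of which 144 were among the 280. An offset for GC content and length gave 101 (89 higher, 12 lower), 88 of them shared, and an offset for transcript length 82 (77 and 5). Without a filter 662 were called (426 and 236), with an unadjusted p 563 (416 and 147) and with no fold limit 2772 (1373 and 1399). With only the control and RBI2 libraries 32 were called (30 and 2), and with only the 4 libraries 0 (0 and 0), where 349 higher and 92 lower had an unadjusted p below the threshold. DESeq2 on the 4 libraries, unadjusted and unfiltered, called 292 genes (172 higher, 120 lower). Leaving out 1 library in turn gave 24 to 1335 called, 22 to 811 higher and 2 to 524 lower genes, with the 3 maxima in the fit without control replicate 1. Of 57 named genes that were called, 27 kept the call without control replicate 2, 23 with the GC and length offset, 14 with the length offset, 9 without RBI2 replicate 1 and 15 without RBI2 replicate 2. DESeq2 gave an adjusted p for 44 of them and called 43. The cause of these losses was not tested.

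The median GC content of the higher genes was 57.4% with DESeq2 and 52.3% to 60.1% when 1 library was left out. That of the lower genes was 39.6% by the transcript with most reads and 38.1% to 40.3% when 1 library was left out. Against 120 min of CX-5461, DESeq2 called 154 genes and leaving out 1 library 5 to 259. Against 10 min of RBI2 leaving out 1 library gave 7 to 63. Against 30 min of RBI2 DESeq2 called 25, the GC and length offset 5, and leaving out 1 library gave 1 to 4.

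The replicate numbers do not pair the samples by any label, and the deviations of control and RBI2 120 min libraries with the same number from their group means correlated at 0.16, the only groups for which this was computed. With the replicate number as a block 241 genes were called, 230 of them shared, and 50 of the 57 named genes kept their call. The block together with the GC and length offset gave 96 (82 higher, 14 lower).

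Named genes whose log2 difference changed sign were uncalled ones, except for ENSG00000218426, which ranged from -15.01 to 7.15 when 1 library was left out. With the GC and length offset the values were POLR2L -0.24, TOP2A 0.23, NPM1 0.056, SEH1L 0.051, SRSF3 0.082, PSMD2 -0.034, RPL7A -0.035, ACTB -0.12, AXL -0.15, KRT8 -0.13, KRT18 -0.18, H2BC12 -0.26 and MT-RNR2 0.20. With the block and that offset they were POLR2L -0.24, TOP2A 0.23, NPM1 0.056, SEH1L 0.052, SRSF3 0.083, PSMD2 -0.033, RPL7A -0.036, ACTB -0.12, AXL -0.15, KRT8 -0.13, KRT18 -0.18, H2BC12 -0.26 and MT-RNR2 0.22. With the length offset they were POLR2L -0.17, TOP2A 0.30, DUSP4 0.084, NOTCH2 0.23, NSD2 -0.10, BRD2 -0.41, PSMA7 -0.037, NDUFV2 -0.039, NEAT1 -0.12, MIR4435-2HG 0.16, RPL7A -0.063, GAPDH 0.016, KRT8 -0.087, KRT18 -0.094 and H2BC12 -0.13. Without the filter GAPDH was at 1.2e-05, and with DESeq2 on the 4 libraries the values were NDUFV2 -0.015, ACTB -0.023 and H2BC12 -0.0067. When 1 library was left out, the ranges were POLR2L -0.018 to 0.27, TOP2A -0.26 to 0.055, NCL -0.38 to 0.065, FOSL1 -0.24 to 0.19, DUSP4 -0.15 to 0.011, NOTCH2 -0.37 to 0.34, HSPA8 -0.46 to 0.12, THBS1 -0.40 to 0.12, MKI67 -0.74 to 0.48, PSMD2 -0.083 to 0.27, PSMA7 -0.18 to 0.49, NDUFV2 -0.11 to 0.12, NDUFV1 -0.065 to 0.76, NEAT1 -0.081 to 0.35, SNHG29 -0.051 to 0.23, RPL7A -0.12 to 0.21, RPLP0 -0.15 to 0.56, ACTB -0.045 to 0.064, GAPDH -0.12 to 0.092, KRT18 -0.059 to 0.19, H2BC12 -0.28 to 0.39, ZNF302 -2.09 to 0.23, MT-RNR2 -0.55 to 0.54 and ATXN2 -0.78 to 0.18. At 14112299 estimated reads, the smallest library, genes below 1 CPM rest on few reads, which limits the precision of the scarce RNAs.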

Other observations

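Zinc finger transcription factors with a numbered ZNF symbol are a large family of AU-rich repressors of transposons and genes. Of 427 tested, 3 (0.703%) were called higher and 6 (1.41%) lower, beside 1.42% and 0.395% of all genes. The list had a median log2 difference of -0.12 and a median GC content of 43.6%. At any fold 40 were higher and 51 lower, beside 8.9% and 9.07% of all genes. Without control replicate 2 the median log2 difference over 429 of these genes was -0.02. Of 19 HES, HEY and SOX regulators of cell fate tested, with a median GC content of 58.9%, 0 were called by edgeR. At any fold 5 were higher and 0 lower, beside 8.9% and 9.07% of all genes. With the GC and length offset 1 was higher and 1 lower, beside 478 and 321 of all 15426 genes.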
